A study of Triticum aestivum with 6 samples.

Results

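Lipid-transfer protein genes were described in developing grain of bread wheat (Triticum aestivum), with 3 RNA sequencing libraries from white grain and 3 from purple grain, all taken 30 days after flowering. Members were the genes whose deposited description contains "lipid transfer protein" or the same words with a hyphen. They numbered 152 of the 107891 genes in the table. Grown in pots in a climate chamber under the same light and temperature, the wheats are labelled only as white and purple grain, with no cultivar, pedigree or allele named. Grain colour therefore cannot be told apart from any other genetic difference between them, and separate plants are not stated for the 3 libraries of either grain type. The sample label gives grain as the tissue, whereas the extraction protocol speaks of stems and buds. Levels are the authors' FPKM, a measure scaled for gene length and library size, and each ± is an SE from the fitted model.

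Non-specific lipid-transfer proteins (nsLTPs) are small secreted plant proteins held by disulphide bridges around a hydrophobic tunnel that can carry fatty acids and other lipids. They fall into a larger class, type 1, and a smaller class, type 2. In cereal grain, LTP1 is known as an abundant protein of the aleurone layer, the living outer cell layer of the endosperm. Elsewhere nsLTPs are linked to the building of the surface layers of cutin, wax and suberin, and the Arabidopsis protein DIR1 is known for its part in signalling during systemic resistance to pathogens.

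Descriptions placed the 152 members in 10 name groups. Type 1 held 38 genes and type 2 held 33. Another 19 genes had a lipid-transfer name without a number. DIR1 had 19 genes, LTP-like 17, LTP4 10, AKCS9 9, LTP5 4 and LTP3 2. The remaining gene, TraesCS5B02G425200, is described as a glycolipid transfer protein, which belongs to an intracellular protein family of different structure and is not an nsLTP. It entered through the wording of its description and is kept apart below. A description is the name of a database protein that the gene resembled, in many cases from another grass, and does not establish function. In the deposited annotation 65 members (42.8%) carry the GO term lipid binding and 46 (30.3%) the term extracellular region, against 0.452% and 4.46% of all genes. The median gene span was 364 bp in the members and 2377 bp over all genes. On placed chromosomes 72 of 134 members lay in 25 clusters with gaps under 200 kb, and 18 members were on unplaced sequence. Chromosomes 7A, 7B and 7D held 5, 7 and 5 members, of which 0 reached the level tested here, and none of the members lay on group 6.

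Of the 152 members, 31 had 0 counts in every library and 50 had counts but a mean under 0.5 FPKM over the 6 libraries, which left 71 tested. A member low in one grain type could pass this filter only through the other. Counts over the tested members are therefore given as a description. Of the 50 below the filter, 19 had counts in white grain alone, 12 in purple grain alone and 19 in both, and 25 had at most 10 counts in all. The largest mean of either grain type among them was 0.816 FPKM. DIR1 and LTP-like genes were mostly silent in these libraries, with 2 of 19 and 3 of 17 tested.

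The level of the family as a whole was carried by a few genes. Summed over all members it was 5209, 5825 and 3053 FPKM in the white libraries and 15778, 15395 and 5873 FPKM in the purple ones. These sums were 0.640%, 0.792% and 0.381% of all FPKM in white versus 2.04%, 2.01% and 0.704% in purple grain. Purple replicates 1 and 2 thus stood far above the other 4 libraries, and purple replicate 3 lay next to white replicate 2. Type 2 genes gave 3339, 4413 and 2061 FPKM in white versus 5991, 4352 and 3996 FPKM in purple grain, so the grain types overlapped. Type 1 genes gave 595, 167 and 293 FPKM in white versus 8675, 10346 and 827 FPKM in purple grain, and the grain types did not overlap.

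**Figure D1:**
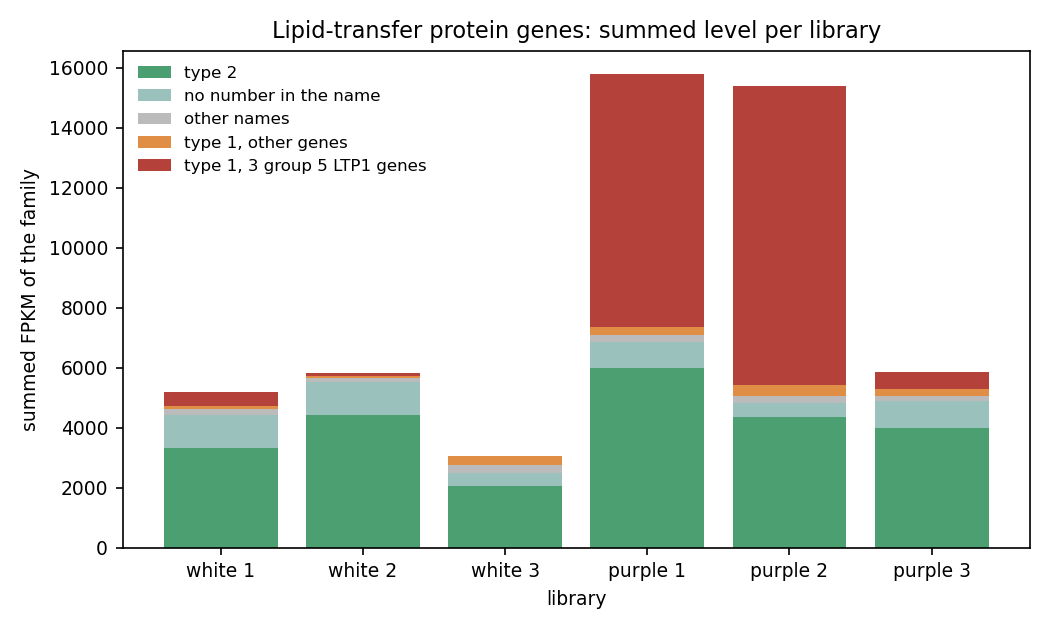
Summed FPKM of the members in each library (bars, from 0), split by name group. Purple 1 and purple 2 stand at 15778 and 15395 FPKM, of which 53.3% and 64.8% came from 3 type 1 genes of chromosome group 5, while purple 3 stands at 5873 FPKM.

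Across the transcriptome purple replicate 3 was the least like the rest of its grain type. Its log2(FPKM + 1) values had correlations across genes of 0.885 with purple replicate 1 and 0.891 with purple replicate 2, a pair whose own correlation was 0.945; genes are not independent replicates. Its correlation with the white libraries was 0.836 to 0.864. Library totals were 78660932 to 102868886 counts. Results below are given with and without purple replicate 3 where it matters.

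Marker genes of grain tissues were listed beside the family. The 71 genes described as aleurone and embryo products (oleosins, LEA proteins, globulin-1 and others) made up 0.328%, 0.408% and 0.163% of all FPKM in white versus 1.70%, 2.16% and 0.550% in purple grain, and 11 of them had 0 counts throughout. Of 45 tested, 6 were higher in purple grain and 0 lower (21 and 1 by unadjusted p under 0.05). Of all 48492 tested genes, 2.87% were called higher and 2.32% lower. By unadjusted p under 0.05 these shares were 14.2% and 12.6%. The number of aleurone and embryo genes called higher rested on single libraries, with 14 higher without purple replicate 3 and 2, 1 and 1 higher without white replicate 1, 2 or 3. It was 0 on leaving out purple replicate 1 or purple replicate 2, where 22 and 16 were higher by unadjusted p, and DESeq2 called 18 higher. The 119 starchy endosperm genes made up 15.2% to 25.1% in white versus 11.1%, 11.6% and 27.4% in purple grain, with 5 at 0 counts throughout. Among 107 tested, edgeR called 0 higher and 18 lower (2 and 24 by unadjusted p), and DESeq2 called 2 higher and 22 lower. The number lower was 11 without purple replicate 1, 9 without purple replicate 2 and 26 without purple replicate 3. The median log2 difference of this list was -0.24, and its most expressed gene, for grain softness protein 1, did not pass (-0.23 ± 0.58; adjusted p = 0.828 in edgeR). Its called genes with the smallest adjusted p were omega-gliadin genes of 1B. TraesCS1B02G011467 had 59.3, 124.6 and 79.1 FPKM against 0.000845, 0 and 0.0041 FPKM. Whether the calls reflect the tissue or single genes was not tested. The 310 green pericarp genes made up 0.0612% to 0.0671% in white versus 0.0204%, 0.00899% and 0.0514% in purple grain, with 123 at 0 counts throughout, and 0 of 75 tested were called by edgeR. Unadjusted p-values under 0.05 were reached by 6 of these 75 genes, all lower. DESeq2 called 2 lower, and edgeR without purple replicate 3 called 46 lower. Of all 48492 tested genes, 3008 were lower by DESeq2 and 2411 by edgeR without purple replicate 3. The 72 stem and xylem genes made up 0.0157% to 0.0299% in all libraries, with 34 at 0 counts throughout, and 2 of 15 tested were lower and 0 higher (5 and 2 by unadjusted p), with 0 lower on leaving out white replicate 2 or white replicate 3 (3 and 4 by unadjusted p) and 1 on leaving out white replicate 1, purple replicate 1 or purple replicate 2. In whole grain, fewer cells of a type and less RNA per cell cannot be told apart.

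A gene was called when its Benjamini-Hochberg adjusted p in edgeR's quasi-likelihood test over 48492 genes was under 0.05 and its log2 difference, purple minus white, was at least 1 in size. Of the 71 tested members 9 were called (12.7%), 5 of them higher in purple grain (7.04%) and 4 lower (5.63%). Of all tested genes 5.19% were called, 2.87% higher and 2.32% lower. Without the glycolipid transfer protein gene, 3 of 70 were lower. At an unadjusted p under 0.05, 17 members were higher (23.9%) and 19 lower (26.8%), against 14.2% and 12.6% of all tested genes. By FPKM, every purple library exceeded every white one for 17 members (23.9%) and was below every white one for 15 (21.1%), where all tested genes gave 13.3% and 19.9%. The median log2 difference was -0.25 over the members and 0.02 over all tested genes. Both directions were thus held within the family, with values from -7.75 to 11.66. The counts rested on single libraries, and those over all tested genes also changed. Without purple replicate 2 edgeR called 0 members in either direction (unadjusted p under 0.05 for 12 higher and 13 lower members). All tested genes then gave 229 higher and 351 lower. Without purple replicate 3 edgeR called 7 members higher and 8 lower, against 2562 and 2411 of all tested genes. On leaving out white replicate 2, white replicate 3 or purple replicate 1 it called 3 members higher each time, with 0, 1 and 0 lower. Where the number lower was 0, 22 and 11 members were lower by unadjusted p. Over all tested genes these settings gave 385, 402 and 684 higher and 390, 405 and 562 lower. DESeq2 called 15 members higher and 16 lower, against 4561 and 3008 of all tested genes. Some genes given below as not passing in edgeR were among them.

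**Figure D2:**
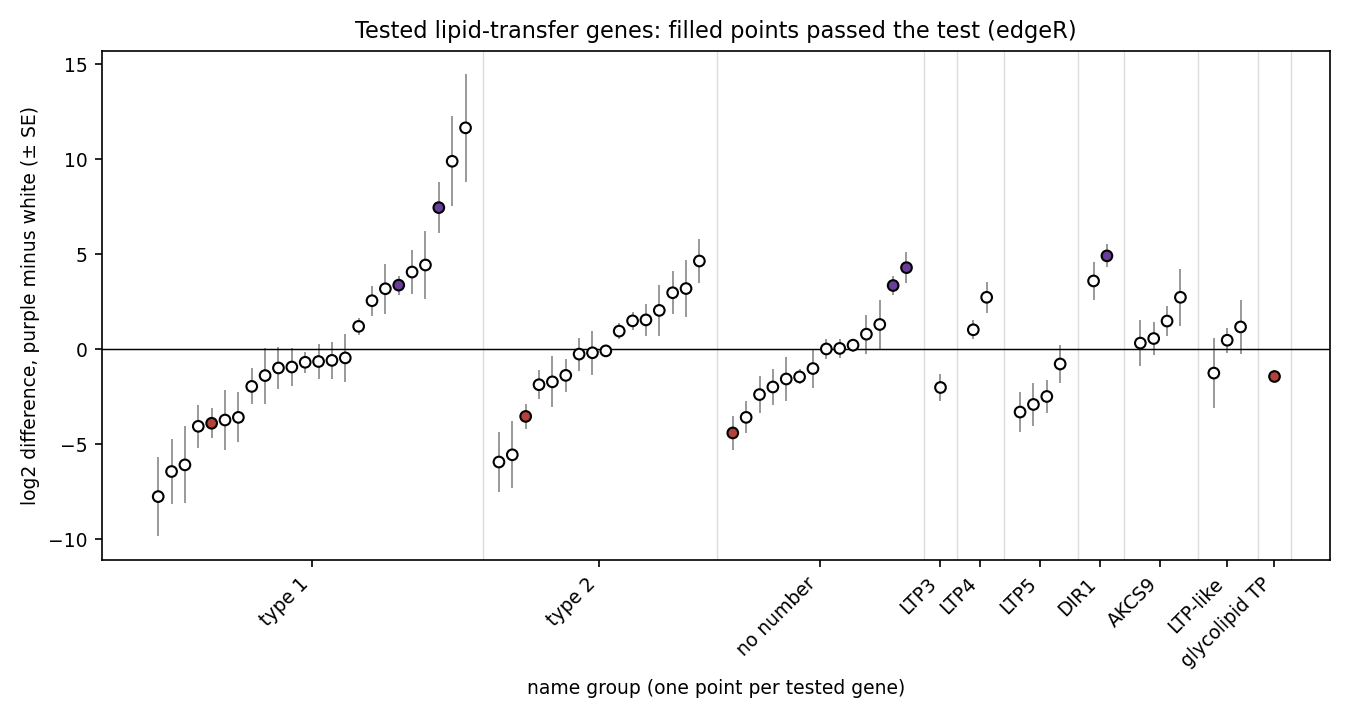
Log2 difference (purple minus white, edgeR) of each of the 71 tested members, by name group, with SE bars; filled points passed the test. Type 1 spans -7.75 to 11.66, and its largest differences have the longest error bars and open points.

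In purple replicates 1 and 2 the most abundant members were the LTP1 genes of chromosomes 5B and 5D, and another gene of the set, on 5A, was expressed at a lower level. TraesCS5B02G146000 (chromosome 5B, 273458656 to 273459429, minus strand) had 464, 82.8 and 2.66 FPKM in the white libraries and 5954, 5365 and 586 FPKM in the purple ones. It ranked 6 and 5 among all genes by FPKM in purple replicates 1 and 2, against 151, 1143 and 25536 in the white libraries. The purple libraries were all above the white ones, but each grain type spanned an order of magnitude or more. Its log2 difference was 4.44 ± 1.79, which did not pass (adjusted p = 0.174 in edgeR; 0.00364 to 0.344 over 15 alternatives).

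TraesCS5D02G145200 (5D, 231788218 to 231788565, plus strand) had 1.79, 0.336 and 0 FPKM in white versus 2359, 4468 and 7.11 FPKM in purple grain. Behind these levels were 53, 11 and 0 counts in white versus 89304, 160454 and 213 counts in purple grain. TraesCS5A02G147400 (5A, 325184245 to 325184588, minus strand) had 0.137, 0.111 and 0 FPKM in white versus 99.8, 145 and 0.162 FPKM in purple grain. Its purple replicate 3 value rested on 5 counts and its white values on 4, 4 and 0, so those 4 libraries held 0 to 5 counts each. Purple replicate 3 lay near the white level on 5A and above every white library on 5D. On both chromosomes purple replicates 1 and 2 lay far above purple replicate 3. The log2 differences were 11.66 ± 2.84 and 9.90 ± 2.36, and neither passed (adjusted p = 0.0660 and 0.0628 in edgeR).

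Without purple replicate 3 the 5D and 5A genes were called higher (adjusted p = 0.0211 and 0.00785 in edgeR), and the 5B gene was not (0.128). Calls over all tested genes then rose as well, from 1391 higher and 1127 lower to 2562 and 2411. Leaving out any other single library called neither gene (adjusted p in edgeR of 0.0846 to 0.176 for 5D and 0.114 to 0.183 for 5A). DESeq2 called all 3 higher (adjusted p = 9.85e-06, 3.84e-05 and 0.00364 for 5D, 5A and 5B). The 5D and 5A genes were each called in 3 of 15 alternatives, the replicate block among them, and the 5B gene in 1. Together the 3 genes made up 8.94%, 1.43% and 0.0872% of the family's FPKM in white versus 53.3%, 64.8% and 10.1% in purple grain. The libraries with the most LTP1 RNA were also those with the highest share of aleurone and embryo RNA, given above. The part of that share in the result was not tested. Copies on the 3 subgenomes can share reads, so the split of counts between them is uncertain.

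The nearest other member on each of these chromosomes ran the other way in some libraries. The neighbour on 5B, TraesCS5B02G145900 (273146475 to 273147893), is described as probable nsLTP 3 and lies 311 kb from the LTP1 gene with 0 other genes of the table between. It had 118, 48.6 and 153 FPKM in white versus 14.4, 13.4 and 48.6 FPKM in purple grain. White replicate 2 and purple replicate 3 met at the boundary between the groups. The log2 difference was -2.0 ± 0.70 (adjusted p = 0.135 in edgeR), and the gene was called lower without purple replicate 3 (adjusted p = 0.0437 in edgeR). DESeq2 with all libraries also called it lower, and no other of the 15 alternatives did.

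The neighbour on 5D, TraesCS5D02G145300 (232011275 to 232011630), a type 1 gene 223 kb from its LTP1 gene, had 18.2, 14.1 and 26.6 FPKM in white versus 0.170, 0.638 and 20.3 FPKM in purple grain. Purple replicates 1 and 2, the libraries richest in the adjacent LTP1 transcript, held almost none of it, and purple replicate 3 was within the white range. With all libraries the log2 difference was -1.38 ± 1.47 (adjusted p = 0.581 in edgeR). Without purple replicate 3 it was -5.45, and the gene was called lower (adjusted p = 0.0192 in edgeR). No other of the 15 alternatives called it, DESeq2 included, and without purple replicate 2 the adjusted p was 0.808 in edgeR. The type 1 neighbour on 5A, TraesCS5A02G147000 (324403095 to 324403903), had 18.1, 6.62 and 22.6 FPKM in white versus 5.85, 10.2 and 12.2 FPKM in purple grain, and the groups overlapped (adjusted p = 0.475 in edgeR). It lies 780 kb from its LTP1 gene with 3 other genes between. In each pair both genes are on the same strand.

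**Figure D3:**
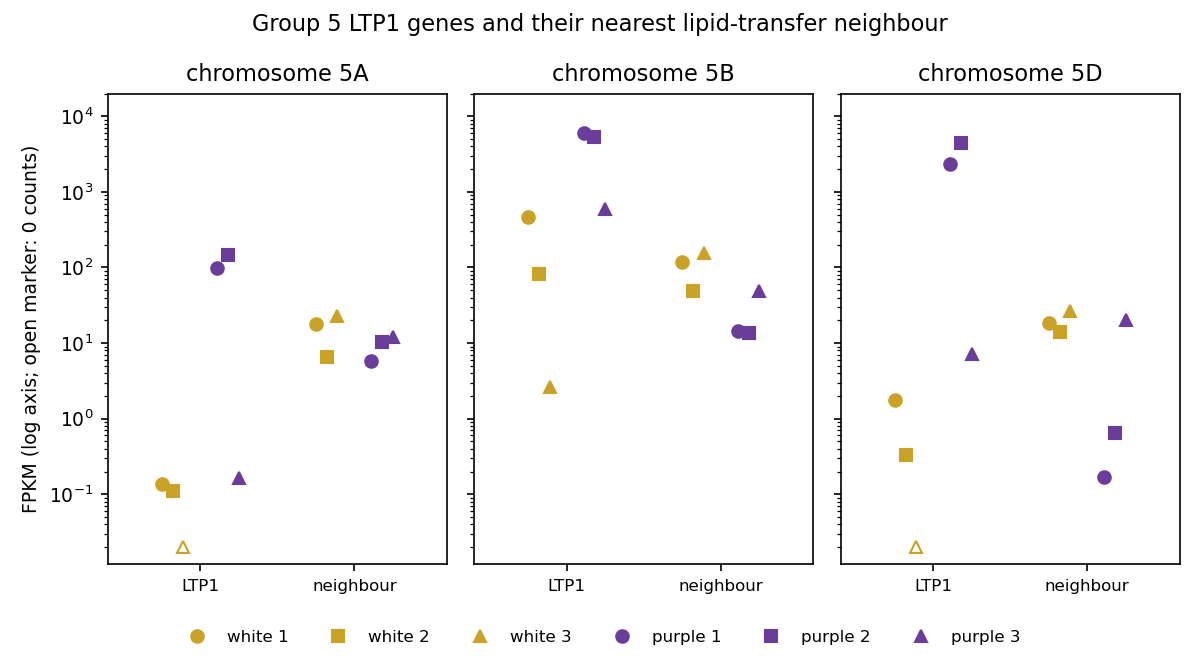
FPKM on a log axis of the LTP1 gene and its nearest member on chromosomes 5A, 5B and 5D, 1 marker per library (gold white, violet purple; open markers 0 counts, drawn at the foot). On 5D purple 1 and purple 2 have 2359 and 4468 FPKM of LTP1 and 0.170 and 0.638 FPKM of the neighbour, while purple 3 has 7.11 and 20.3 FPKM.

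Of the 6 tested members on chromosome group 2, 3 rose in purple grain, 1 on each subgenome, and the other 3, type 2 genes described below, did not pass. TraesCS2A02G477700 (2A, 716549342 to 716549949), described as an nsLTP without a number, had 3.18, 2.0 and 4.39 FPKM in white versus 49.0, 21.8 and 24.0 FPKM in purple grain. Its log2 difference was 3.36 ± 0.48 (adjusted p = 0.0172 in edgeR), and it was called in 14 of 15 alternatives, the exception being without purple replicate 2 (0.0513). TraesCS2D02G476900 (2D, 579064961 to 579065485), with the same name, had 2.88, 0.409 and 2.28 FPKM in white versus 58.6, 23.9 and 25.8 FPKM in purple grain. It rose by 4.30 ± 0.82 on the log2 scale (adjusted p = 0.0378 in edgeR), with purple replicate 1 the highest library as on 2A.

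On 2B the gene set beside them for its position, TraesCS2B02G501000 (696080847 to 696081190), is described as a type 1 nsLTP precursor. It had 0.847, 0 and 0.0944 FPKM in white versus 111, 28.1 and 33.0 FPKM in purple grain. Its log2 difference was 7.46 ± 1.35 (adjusted p = 0.0326 in edgeR), and again purple replicate 1 was highest. In all 3 genes every purple library was above every white one, purple replicate 3 included. The 2D call did not hold on leaving out white replicate 3 or either of purple replicates 1 and 2 (adjusted p in edgeR of up to 0.118), and the 2B call without any of these or white replicate 2 (up to 0.111). Members beside them, named after their values were seen, were nearly silent. TraesCS2A02G477600, 4.5 kb away on 2A, held 27, 0 and 35 white-grain counts and 0 in each purple library. TraesCS2D02G476800 had 0 counts in each white library against 5, 9 and 0.

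Genes described as phospholipid transfer protein 1, an older name for nsLTPs that move phospholipids between membranes in the test tube, had higher values in purple than in white libraries on all 3 subgenomes of group 4, and 1 of them passed. TraesCS4A02G194400 (4A, 476145671 to 476146036) had 8.17, 4.26 and 9.49 FPKM in white versus 76.3, 100.1 and 42.1 FPKM in purple grain. The groups were far apart, with a log2 difference of 3.38 ± 0.50 (adjusted p = 0.0181 in edgeR). Leaving out white replicate 3 or purple replicate 2 ended this call (adjusted p = 0.057 and 0.0669 in edgeR), as did fitting the replicate number as a block. TraesCS4B02G120900 had 0.440, 0.610 and 5.17 FPKM against 12.9, 62.1 and 24.3 FPKM, and TraesCS4D02G118900 had 3.54, 4.98 and 18.4 FPKM against 27.9, 86.9 and 33.7 FPKM. White replicate 3 was the highest white library for all 3 copies. Neither the 4B nor the 4D gene passed (log2 differences 4.07 ± 1.15 and 2.56 ± 0.79, adjusted p = 0.0896 and 0.105 in edgeR), although on both the purple libraries were all above the white ones. The 4B gene was called higher in 4 of 15 alternatives, DESeq2 among them, and the 4D gene in 1, DESeq2.

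Of the 19 DIR1 genes, the 2 with appreciable levels were both higher in purple than in white libraries, and 1 passed. TraesCS5A02G495400 (5A, 663375905 to 663376240) had 0.255, 0.644 and 1.25 FPKM in white versus 21.5, 25.8 and 14.8 FPKM in purple grain. The purple values were close to one another, and the log2 difference was 4.92 ± 0.61 (adjusted p = 0.012 in edgeR), lost on leaving out white replicate 2 or purple replicate 2 (adjusted p in edgeR of up to 0.0562). TraesCS4B02G323400 (4B, 613905713 to 613906024) had 2.38, 7.16 and 0.315 FPKM in white versus 55.5, 34.6 and 15.6 FPKM in purple grain. Here the libraries were also fully separated, with a log2 difference of 3.60 ± 0.99 (adjusted p = 0.0840 in edgeR). The 4B gene was called higher in 3 of 15 alternatives, DESeq2 among them. The end of the long arm of 5A came from chromosome 4A in the history of wheat, so genes there can be copies of genes on 4B and 4D. Whether these 2 are such copies was not tested. The other 17 DIR1 genes, on groups 2, 5 and 7, had at most 18 counts in any library.

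**Figure D4:**
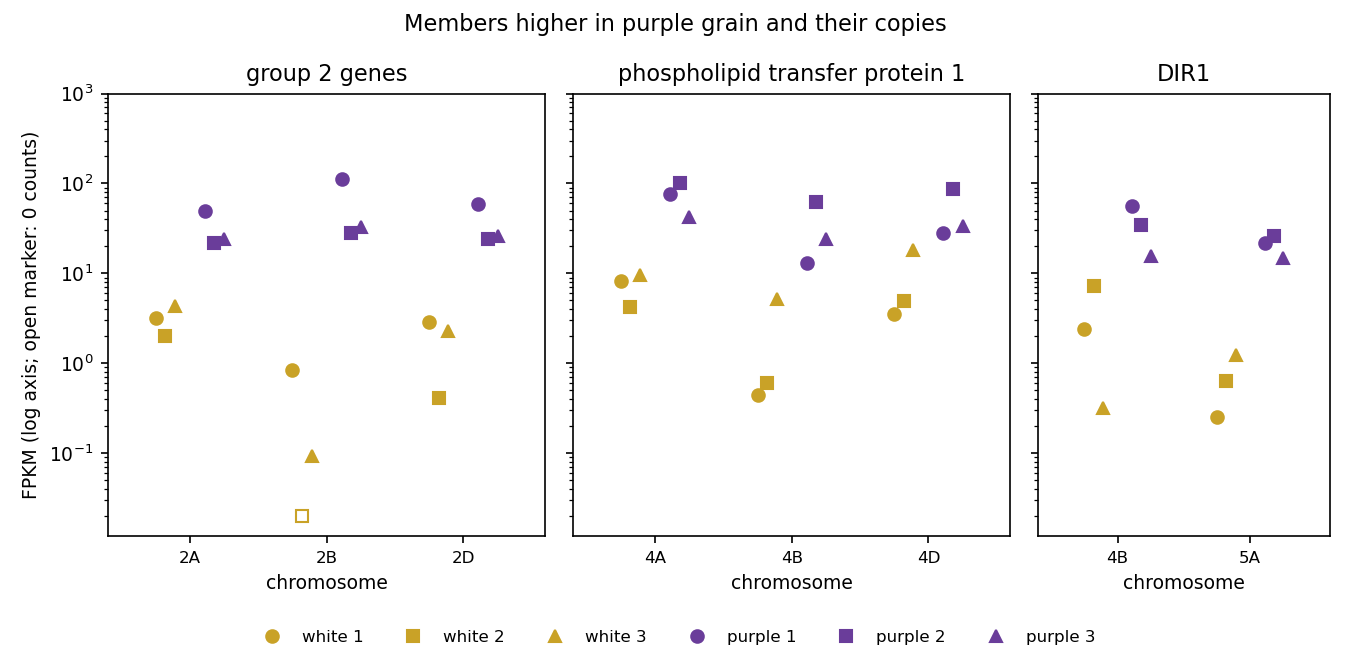
FPKM on a log axis for the group 2 genes, the phospholipid transfer protein 1 copies and the DIR1 genes, 1 marker per library (gold white, violet purple; open marker 0 counts). In all 8 genes the purple markers are above the white ones, and 5 of the 8 passed the test.

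Type 2 genes were the most abundant lipid-transfer transcripts of white grain and mostly did not separate the grain types. TraesCS5A02G554300 (5A, 706270579 to 706271352) had 559, 906 and 314 FPKM in white versus 2125, 1535 and 937 FPKM in purple grain. All purple libraries were higher, though purple replicate 3 exceeded white replicate 2 only narrowly, and the log2 difference of 1.5 ± 0.49 did not pass (adjusted p = 0.118 in edgeR). Of 15 alternatives, 1 called this gene higher, DESeq2. The LTP2G gene TraesCS4B02G393300 (4B, 667854832 to 667855645) had 69.6, 1063 and 395 FPKM against 1744, 1245 and 872 FPKM (adjusted p = 0.283 in edgeR). White replicate 1 was the lowest library there, as it was for the gene 3.4 kb away, TraesCS4B02G393400, named after its values were seen, at 42.0, 1006 and 450 FPKM against 410, 265 and 418 FPKM (adjusted p = 0.884 in edgeR). The 2G genes near the end of group 2, chosen after their values were seen, showed white replicate 1 at the other extreme. The 3 copies TraesCS2A02G534000, TraesCS2B02G564300 and TraesCS2D02G536300 summed to 1585, 225 and 262 FPKM in white versus 145, 193 and 328 FPKM in purple grain, and none passed (adjusted p = 0.450, 0.181 and 0.342 in edgeR). DESeq2 called the 2B gene lower. Without white replicate 1 the log2 differences on 2A and 2D changed sign, to 1.47 and 0.28.

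The 2G genes of group 1, also chosen after their values were seen, were lowly expressed and differed between copies. TraesCS1A02G175200 had 0.802, 0.360 and 0.0808 FPKM in white versus 2.22, 21.9 and 6.0 FPKM in purple grain (log2 difference 4.65 ± 1.17; adjusted p = 0.0708 in edgeR). It was called higher in 2 of 15 alternatives, DESeq2 among them. TraesCS1B02G189400 had 0.235, 0.0987 and 0.351 FPKM against 0.151, 2.82 and 2.36 FPKM (adjusted p = 0.155 in edgeR), and TraesCS1D02G163900 had 0.572, 1.10 and 2.29 FPKM against 0.0403, 2.28 and 0.868 FPKM (adjusted p = 0.941 in edgeR). In each copy purple replicate 2 was the highest purple library. The type 1 genes of group 3, chosen in the same way, were likewise unlike one another. TraesCS3A02G344700 had 46.6, 10.6 and 60.7 FPKM against 2.08, 28.4 and 28.7 FPKM, whereas TraesCS3B02G376700 had 2.36, 0.374 and 1.51 FPKM against 0.553, 24.9 and 12.2 FPKM and TraesCS3D02G338300 had 3.09, 9.38 and 10.5 FPKM against 12.9, 21.8 and 13.5 FPKM. None of these 3 passed (adjusted p = 0.591, 0.182 and 0.156 in edgeR), though DESeq2 called the 3B gene higher.

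A run of 5 members on unplaced sequence, 4 of them tested, held genes at very different levels. TraesCSU02G032800, described as a putative nsLTP, had 754, 991 and 249 FPKM in white versus 722, 409 and 761 FPKM in purple grain (log2 difference 0.05 ± 0.51; adjusted p = 0.959 in edgeR). The type 2 gene TraesCSU02G032900 had 663, 785 and 258 FPKM against 1199.6, 862 and 995 FPKM (adjusted p = 0.205 in edgeR). The LTP2G gene TraesCSU02G033800 (unplaced sequence, 29989884 to 29990534) lies 148 kb beyond the nearest other member of the run and fell in purple grain, from 20.8, 23.1 and 37.6 FPKM to 1.01, 1.27 and 4.29 FPKM. Its log2 difference was -3.53 ± 0.66 (adjusted p = 0.0351 in edgeR), with the groups well apart. Leaving out any of white replicates 2 and 3 and purple replicates 1 and 2 ended this call (adjusted p in edgeR of up to 0.132). TraesCSU02G033000, named after its values were seen, had 2.35, 4.0 and 15.9 FPKM in white versus 0, 0 and 0.439 FPKM in purple grain (adjusted p = 0.113 in edgeR). It was called lower in 3 of 15 alternatives. In 1 of these, without purple replicate 3, the log2 difference was -11.92 (adjusted p = 0.0334 in edgeR). Distances on unplaced sequence need not reflect the genome.

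An array of 3 type 1 genes within 61.1 kb near the end of 5B was low in purple grain. TraesCS5B02G475500 (5B, 648277866 to 648278860) fell from 6.81, 12.4 and 43.9 FPKM in white to 1.06, 1.06 and 1.86 FPKM in purple grain, a log2 difference of -3.89 ± 0.78 (adjusted p = 0.0423 in edgeR). It did not pass on leaving out white replicate 2 or either of purple replicates 1 and 2 (adjusted p in edgeR of up to 0.164). TraesCS5B02G475800 had 0.165, 4.79 and 20.2 FPKM against 0, 0 and 0.105 FPKM, and TraesCS5B02G475900 had 0.1, 1.19 and 7.93 FPKM against 0, 0 and 0.113 FPKM. These neighbours did not pass (log2 differences -7.75 ± 2.10 and -6.08 ± 2.02, adjusted p = 0.0818 and 0.122 in edgeR), whereas DESeq2 called both lower. In all 3 genes white replicate 3 was highest and white replicate 1 lowest of the white libraries. The corresponding gene of 5A, TraesCS5A02G464100, had 0.682, 2.05 and 11.8 FPKM against 0.132, 0 and 0 FPKM (adjusted p = 0.0788 in edgeR). It was called lower in 2 of 15 alternatives, DESeq2 among them. On 5D, TraesCS5D02G476800 had 0.298, 2.37 and 14.4 FPKM against 8.29, 1.23 and 2.43 FPKM, so there the groups overlapped (adjusted p = 0.852 in edgeR).

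White replicate 3 was also the highest white library in other members. The 4 genes named LTP5 summed to 1.99, 6.51 and 27.9 FPKM in white versus 1.26, 1.87 and 2.31 FPKM in purple grain. The most expressed, TraesCSU02G147100, had 0.593, 3.70 and 15.4 FPKM against 0.483, 0.889 and 1.04 FPKM (log2 difference -2.90 ± 1.11; adjusted p = 0.159 in edgeR). Of 15 alternatives, 1 called it lower, DESeq2. Of the 19 members with an unadjusted edgeR p under 0.05 and a negative difference, 15 (78.9%) had white replicate 3 as the highest white library, against 38.1% of all such genes. The part of that library in these differences was not tested beyond leaving it out, when edgeR called 3 members higher and 1 lower.

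Another unplaced pair, described as lipid transfer proteins of wheat, was low in purple grain. TraesCSU02G057000 (unplaced sequence, 44271262 to 44272089) had 2.93, 1.49 and 3.75 FPKM in white versus 0.0521, 0.0407 and 0.258 FPKM in purple grain. It fell by 4.4 on the log2 scale (SE 0.89, adjusted p = 0.0436 in edgeR), and the call was kept without purple replicate 3 but lost without any other single library (adjusted p in edgeR of up to 0.143). Its neighbour TraesCSU02G057100, named after its values were seen, had 3.43, 1.23 and 4.59 FPKM against 0.151, 0.104 and 0.472 FPKM (log2 difference -3.58 ± 0.84, adjusted p = 0.0601 in edgeR). Without purple replicate 3 edgeR called this neighbour lower, and so did DESeq2 with all libraries. In both genes purple replicate 3 was the highest purple library.

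**Figure D5:**
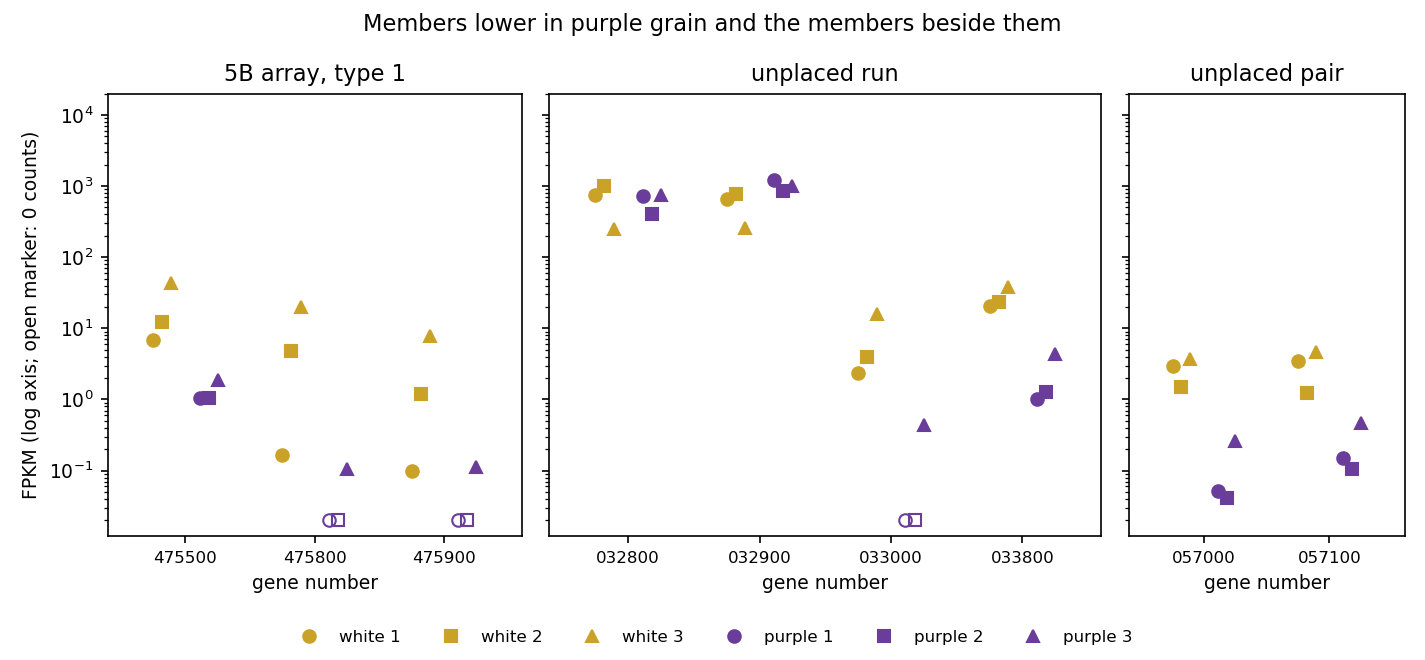
FPKM on a log axis for the 5B array, 4 unplaced genes from TraesCSU02G032800 to TraesCSU02G033800 and the pair TraesCSU02G057000 and TraesCSU02G057100, 1 marker per library (gold white, violet purple; open markers 0 counts). In the unplaced run TraesCSU02G032800 and TraesCSU02G032900 lie at 249 to 1199.6 FPKM, while the purple libraries of TraesCSU02G033800 lie at 1.01 to 4.29 FPKM.

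The glycolipid transfer protein gene TraesCS5B02G425200 (5B, 601327782 to 601330388), of the separate family, fell from 23.7, 53.6 and 51.1 FPKM in white to 16.2, 14.2 and 13.7 FPKM in purple grain. The purple values lay within a narrow range below all white ones, with a log2 difference of -1.41 ± 0.30 (adjusted p = 0.0474 in edgeR). The call was kept in 6 of 15 alternatives (adjusted p in edgeR of up to 0.164).

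The LTP3, LTP4, LTP5, AKCS9 and LTP-like groups had no called gene in edgeR with all libraries. The LTP4 gene TraesCSU02G056900, described as LTP 4.3, had 4.18, 2.03 and 15.1 FPKM in white versus 50.6, 64.4 and 21.4 FPKM in purple grain, without overlap (log2 difference 2.74 ± 0.83, adjusted p = 0.103 in edgeR). Of 15 alternatives, 1 called it higher, DESeq2. The AKCS9 genes were led by TraesCS1D02G381200 with 4.10, 4.89 and 0.772 FPKM against 16.2, 4.95 and 4.35 FPKM (adjusted p = 0.266 in edgeR). The most expressed LTP-like gene, TraesCS1D02G050000, had 9.30, 4.96 and 8.47 FPKM against 21.1, 5.32 and 4.26 FPKM (adjusted p = 0.674 in edgeR). For both of these genes purple replicate 1 was the highest library and the other libraries overlapped. Of the unnumbered genes of group 5, chosen after their values were seen, TraesCS5D02G463100 had 6.47, 5.23 and 6.95 FPKM against 2.93, 2.35 and 1.15 FPKM without overlap (log2 difference -1.45 ± 0.39; adjusted p = 0.0821 in edgeR). DESeq2 and both limma fits called this gene lower. TraesCS5A02G452700, with the same description, had 11.9, 8.60 and 7.22 FPKM against 14.7, 7.16 and 8.73 FPKM, which overlapped (adjusted p = 0.723 in edgeR). On 3B, 7 tested genes chosen after their values were seen, 5 of type 1 and 2 of LTP5, lay in a cluster of 2 and a cluster of 5 that were 939 kb apart. They summed to 19.1, 6.82 and 25.3 FPKM in white versus 2.83, 1.82 and 8.49 FPKM in purple grain. None passed in edgeR, with unadjusted p under 0.05 for 3 of the 7, and 2 were lower by DESeq2.

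Enzymes that make the surface lipids nsLTPs are thought to carry were listed by description. Of 18 tested wax and very-long-chain fatty acid genes, 0 were higher and 4 lower, with a median log2 difference of -0.46. The share called was 22.2%, against 5.19% of all tested genes. Unadjusted p-values under 0.05 were reached by 3 higher and 7 lower genes, and DESeq2 called 1 higher and 6 lower. The 3-ketoacyl-CoA synthase 17 gene TraesCS6D02G071600, an enzyme of fatty acid elongation, fell from 2.05, 6.45 and 3.18 FPKM to 0.427, 0.365 and 0.422 FPKM (log2 difference -3.09 ± 0.40; adjusted p = 0.0130 in edgeR). Its 6B counterpart by name, TraesCS6B02G098300, fell from 3.52, 12.5 and 7.72 FPKM to 1.13, 1.01 and 2.01 FPKM (adjusted p = 0.0419 in edgeR). The most expressed gene of the list, the FIDDLEHEAD-type condensing enzyme TraesCS4B02G297500, had 9.06, 16.9 and 12.1 FPKM against 9.56, 6.67 and 9.96 FPKM (adjusted p = 0.324 in edgeR).

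Of 82 tested cutin and suberin genes, 0 were higher and 4 lower, with a median log2 difference of -0.15. The share called, 4.88%, was near the 5.19% of all tested genes. Both directions appeared under other settings, with 3 higher and 13 lower by DESeq2 and 4 higher and 5 lower of 209 genes with no expression filter, and 9 higher and 18 lower genes had an unadjusted edgeR p under 0.05. TraesCS4B02G341600, described as cytochrome P450 86A1, a fatty acid omega-hydroxylase of suberin synthesis in Arabidopsis, fell from 2.03, 1.44 and 1.73 FPKM to 0.0643, 0.0425 and 0.00730 FPKM (log2 difference -5.28 ± 0.67; adjusted p = 0.0127 in edgeR). TraesCS3D02G361300, described as glycerol-3-phosphate acyltransferase 6, which makes cutin precursors in Arabidopsis, fell from 6.22, 8.34 and 11.5 FPKM to 0.528, 0.652 and 1.28 FPKM (log2 difference -3.29 ± 0.45; adjusted p = 0.0150 in edgeR). The most expressed gene of that list, the GDSL lipase TraesCS7D02G111800, had 59.9, 53.9 and 32.3 FPKM against 69.1, 16.5 and 45.8 FPKM (adjusted p = 0.952 in edgeR). For 40 tested intracellular lipid carriers both edgeR and DESeq2 made 0 calls, and 8 genes were lower at an unadjusted edgeR p under 0.05. Their most expressed gene, the acyl-CoA-binding protein TraesCS7D02G041800, had 78.9, 92.4 and 68.3 FPKM against 121, 70.6 and 72.5 FPKM (adjusted p = 0.584 in edgeR). Without purple replicate 2 edgeR called 0 genes of the 3 lists, where 5 wax genes, 12 cutin and suberin genes and 2 carriers were lower and 8 cutin and suberin genes higher at an unadjusted p under 0.05. Leaving out white replicate 2, white replicate 3 or purple replicate 1 left 1 wax gene called lower each time, and 1, 2 and 2 cutin and suberin genes. Without white replicate 1, 2 cutin and suberin genes were higher and 2 lower. On leaving out purple replicate 3, edgeR called 1 wax gene higher and 7 lower, and 2 cutin and suberin genes higher and 8 lower. All tested genes gave 229 higher and 351 lower without purple replicate 2, and 2562 and 2411 without purple replicate 3.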

How the data were processed

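Grain RNA of 3 white and 3 purple libraries was analysed from one deposited gene table. Per the file headers, the authors deposited a raw count and an FPKM value for each gene and library; values with a count of 0 were written as 0.0001 and were read here as 0. Tools listed in the submitters' processing notes are cutadapt, HISAT2 and StringTie; for these, versions, strand setting, build and annotation are not given in the sources used here. A further 12 columns, from 6 libraries matching no labelled sample, were not used.

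Genes averaging 0.5 FPKM or more were tested on counts with edgeR 4.0.16 in R 4.3.3 (TMM scaling, trended dispersion, quasi-likelihood test, no replicate block), with Benjamini-Hochberg adjustment over 48492 genes. SE is the log2 difference divided by the square root of F. Alternatives used DESeq2 1.42.0, limma 3.58.1, other scalings, filters, thresholds, a replicate block and each library left out. The fit was tested on simulated counts whose spread came from the trended dispersion. It called 8%, 54%, 86% and 92% of genes changed 2-, 4-, 8- and 16-fold, so a gene that did not pass may still differ. All libraries differed by more than counting noise.

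Name groups follow the descriptions. The genes named were each group's most expressed member, the 6 most expressed of the family, called members and tested members of the same name group and chromosome group; sets by position and others so marked were chosen after values were seen. Members and lists were chosen with earlier results of these data known. Since separate plants are not stated for the libraries of a group, a p-value here reflects only library-to-library spread, possibly technical. Intervals from counts cover counting error only. No table of protein or promoter sequences was used here, and 0 gene identifiers matched the reference gene table.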

Additional observations from a re-analysis of the deposited data

How the results depend on the processing

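Members called higher (5) and lower (4) became 15 and 16 with DESeq2 and 10 and 10 at an adjusted p under 0.1. By limma they became 7 and 7 on log2(FPKM + 1) and 7 and 10 on log2(FPKM + 0.1). Over all tested genes, 1391 higher and 1127 lower became 4561 and 3008 with DESeq2, and 3311 and 2263 at an adjusted p under 0.1. The limma fits, in that order, gave 1539 and 1854 higher and 1684 and 2008 lower over all tested genes. Leaving out single libraries gave 0 to 7 members higher and 0 to 8 lower. All tested genes then ranged from 229 to 2562 higher and from 351 to 2411 lower. Among members, edgeR made 0 calls in both directions on leaving out purple replicate 2 (unadjusted p under 0.05 for 12 higher and 13 lower members), and 0 lower calls on leaving out white replicate 2 or purple replicate 1 (22 and 11 lower by that unadjusted measure). Of the 9 calls, 9 were kept under DESeq2, its size factors in edgeR, no filter and the robust fit, 8 with library totals and 3 on leaving out any of white replicates 2 and 3 and purple replicate 1. Fitting a replicate block gave 7 higher and 6 lower, 7 of the 9 calls among them. TraesCS4A02G194400 and TraesCS5B02G425200 were not called with the block, and TraesCS4B02G323400, TraesCS5A02G147400, TraesCS5D02G145200 (higher), TraesCS5B02G475800, TraesCS5B02G475900 and TraesCSU02G057100 (lower) were. Deviations of same-numbered libraries correlated at 0.183, 0.00657 and 0.336. White replicates 1 and 3 correlated best with the purple library of their own number, and white replicate 2 with purple replicate 1 (0.107). The numbers were not taken as pairs, since the labels do not say that they pair samples. Library totals moved the median of all tested genes from 0.02 to -0.11.

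Signs were compared between settings only for the members named by rule and those in sets by position, not for all 71 tested. Among them, log2 differences of 8 uncalled genes changed sign. On leaving out single libraries, TraesCSU02G032800 ranged from -0.33 to 0.34, TraesCS5D02G476800 from -1.51 to 1.78, TraesCS2A02G534000 from -2.31 to 1.47, TraesCS2D02G536300 from -1.78 to 0.28, TraesCS3B02G063400 from -1.13 to 0.06, TraesCS3B02G063500 from -1.52 to 0.62, TraesCS1D02G163900 from -1.39 to 0.55 and TraesCS1D02G050000 from -0.55 to 0.85. TraesCSU02G032800 went to -0.09 with library totals, TraesCS5D02G476800 to 0.03 and 0.33 by limma and 0.02 with the replicate block, and TraesCS2A02G534000 to 0.40 with the block. The cause was not tested. Members under about 1 FPKM rest on few counts.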
